A study of Mus musculus with 8 samples.

Results

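Interferon-stimulated genes and sensors of foreign RNA and DNA were followed in cultured mouse keratinocytes (KCs), the epithelial cells of the epidermis. The group holds 40 named genes of the 41457 genes in the deposited tables. Of the 40, 39 were matched by the gene name in the tables, and Mb21d1 was matched through its RefSeq synonym Cgas, the name used below. Poly(A) RNA was sequenced from KCs of the tail skin of adult, untreated, Wildtype C57BL/6 mice, with 4 samples after 1 week of cultivation and 4 after 3 weeks. All cells grew in serum-free medium with 0.06 mM Ca++, and KCs were split when nearly confluent. The labels number the samples of each time as replicates 1 to 4, and the series describes 4 independent experiments. No added interferon, nucleic acid or microbe is described for either group. The values describe KCs in vitro, outside the tissue, and stimulation arising within the cultures was not examined.

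RIG-I-like receptors (Ifih1, Ddx58 and Dhx58) bind RNA in the cytosol, and the enzyme Cgas binds DNA and makes a cyclic dinucleotide that activates Tmem173, also called STING. Both routes lead to secretion of interferons. Interferons bind receptors on the same or neighbouring cells, and a complex that holds Stat2 and Irf9 then switches on a large set of antiviral genes by binding a short DNA element in their promoters. Interferon gamma acts through another short element. Epithelial cells of barrier tissues, KCs among them, are known to carry this machinery.

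Libraries held between 13896807 and 20026084 reads on exons at 1 week and between 14096649 and 18127283 at 3 weeks. Levels are given as the RPKM values that the authors deposited, in which reads are divided by the length of the exons and by the size of the library. Fold changes, 3 weeks over 1 week, were fitted to the exon reads with edgeR. Its quasi-likelihood test gave the p-values, which were adjusted after Benjamini and Hochberg over all tested genes. The summed RPKM of 6 KC markers lay between 12181 and 14439 at 1 week and between 7106 and 8278 at 3 weeks. Of these 6, 2 were called, both lower (Krt5 and Itga6), where 32.8% of all tested genes were called and 17.0% were lower. For 9 markers of leukocytes and Langerhans cells the sums were 2.40 to 5.76 and 4.67 to 11.7 RPKM. Ptprc, Cd3e, Cd207, Itgax and Cd52 had too few reads for a test. Of the tested leukocyte and Langerhans cell markers, 1 was called, higher, where 15.7% of all tested genes were higher. This was H2-Ab1, an MHC class II chain, with 0.723 to 0.866 RPKM at 1 week and 2.74 to 7.03 RPKM at 3 weeks (log2 fold change 2.74 ± 0.36, adjusted p = 0.000801). Cd207, the defining Langerhans cell marker, had no read in any library. In bulk RNA of this kind, fewer cells of a type and less RNA per cell cannot be told apart.

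Most members were weakly expressed. Over the 8 libraries, 6 members had a mean of at least 5 RPKM, 14 lay between 1 and 5 RPKM, and 20 were under 1 RPKM. Reads sufficed for a test in 32 members, whose median level was 1.66 RPKM against 5.05 RPKM over all tested genes. The other 8 were Mx1, Mx2, Oas2, Oasl1, Oasl2, Rtp4, Cmpk2 and Iigp1, with 11 to 112 reads each over all 8 libraries and at most 1.23 RPKM, reached by Rtp4.

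Between 1 and 3 weeks, 2 of the 32 tested members passed an adjusted p of 0.05, and both fell. They were the DNA sensor Cgas and Samhd1, a phosphohydrolase that degrades deoxynucleotides. These are 6.25% of the tested members, where 32.8% of all 12590 tested genes passed the same threshold (15.7% higher and 17.0% lower at 3 weeks). No member was called higher, and 3 members had an unadjusted p under 0.05. Log2 fold changes were positive in 15 members and negative in 17, with a median of -0.13 against 0.03 over all tested genes. The members' standard errors were wide, with a median of 0.49 on the log2 scale against 0.21 over all tested genes. The RPKM values of the groups did not overlap for 3 tested members (Cgas, Samhd1 and Ifit2), against 37.0% of all tested genes.

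Other fits to all 8 libraries were also made. DESeq2 called 3 members lower (Cgas, Samhd1 and Ifit2, an RNA-binding antiviral protein) and 0 higher, where it called 38.8% of all genes (19.3% higher and 19.5% lower). On log2(RPKM + 0.1), limma also called these 3 lower and 0 higher, out of 35.0% of all genes (10.4% higher and 24.5% lower). With the replicate number as a block, Cgas and Samhd1 were called lower and no member higher, out of 22.8% of all genes (10.4% higher and 12.4% lower).

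Libraries of the same age differed widely in these genes. Within a time point, the median SD of a member's log2 CPM was 0.59 at 1 week and 0.85 at 3 weeks, against 0.22 and 0.34 over all tested genes. Over the 31 tested members with more than 3 reads in every library, the highest library stood a median of 5.36-fold above the lowest. This ratio was 108 for Ifi44, 42.1 for Oas3, 18.2 for Usp18, 16.5 for Ifit1 and 12.6 for Isg15.

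A single library at each time held most of the high values. At 1 week, replicate 2 was the highest library for 25 of the 32 tested members (78.1%), against 25.5% of all tested genes. At 3 weeks, replicate 4 was the highest for 27 of 32 (84.4%), against 33.6% of all tested genes. The summed RPKM of the 40 members was 187 in replicate 2 at 1 week and 87 to 116 in the other 1-week libraries. It was 206 in replicate 4 at 3 weeks and 69 to 89 in the other 3-week libraries.

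**Figure D1:**
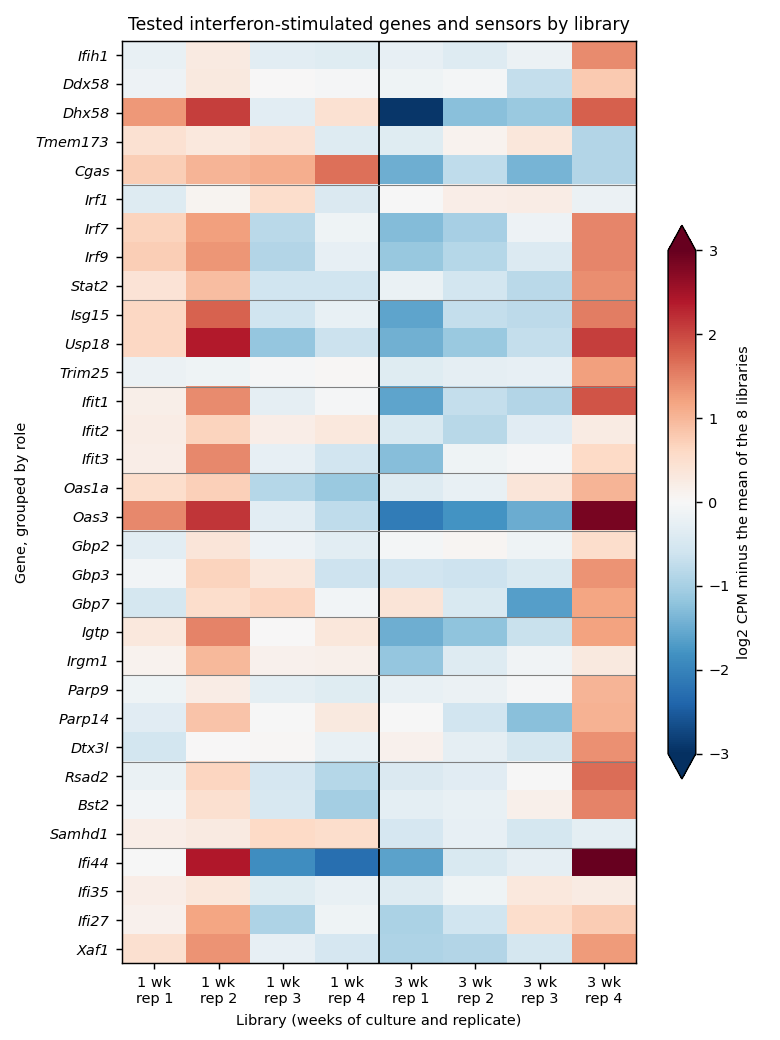
Level of the 32 tested members (rows, grouped by role) in the 8 libraries (columns, 1 week to the left of the black line), as log2 CPM minus the gene's mean over the 8 libraries. Red is above and blue below that mean, and the scale stops at 3 in either direction. Red is strongest in replicate 2 at 1 week and replicate 4 at 3 weeks, which held the highest value of their time point for 25 and 27 members. Replicate 1 at 1 week is also above the mean for many members, such as Oas3, Dhx58 and Usp18, and below it for others, such as Gbp7.

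On the log2 CPM scale, replicate 2 at 1 week exceeded the mean of the other 3 libraries of its age for 29 of 32 members, by a median of 0.94. The excess ran from -0.18 for Samhd1 to 3.79 for Ifi44, and 16 members were at least 2-fold above, where 2.07% of all tested genes were. Replicate 4 at 3 weeks exceeded its companions for 30 of 32 members, by a median of 1.62, from -0.91 for Tmem173 to 4.84 for Ifi44. Here 24 members were at least 2-fold above, against 10.8% of all tested genes. Over all 8 libraries, replicate 4 at 3 weeks was the highest for 18 of the 32 members and replicate 2 at 1 week for 10, against 23.5% and 11.0% of all tested genes.

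**Figure D2:**
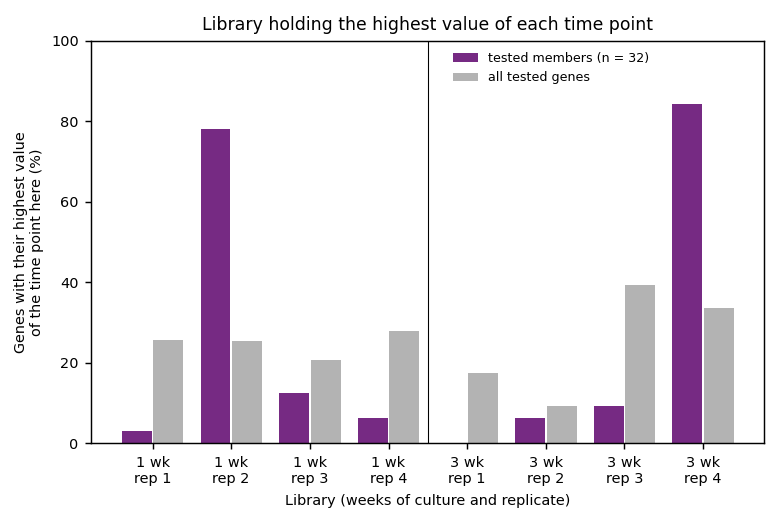
Share of genes (vertical axis, percent) whose highest value of a time point lies in each library (horizontal axis), for the 32 tested members (purple) and for all tested genes (grey). The purple bars reach 78.1% in replicate 2 at 1 week and 84.4% in replicate 4 at 3 weeks, where the grey bars stand at 25.5% and 33.6%.

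Marker sums of other cells were compared over the same libraries. The 6 fibroblast markers summed to the highest value of their age in both, at 4.49 RPKM in replicate 2 at 1 week (range 2.70 to 4.49 RPKM) and 4.65 RPKM in replicate 4 at 3 weeks (range 2.30 to 4.65 RPKM). The latter sum was mostly Col1a1, with 3.34 RPKM, the highest of its age, whereas Col3a1 (0.312 RPKM) and Dcn (0.257 RPKM) were the lowest of their age there. The leukocyte and Langerhans cell markers summed to 3.53 RPKM in the former and to 4.67 RPKM in the latter, which was the lowest of its age. Melanocyte markers gave 1.91 RPKM, the lowest of its age, and 1.68 RPKM, over ranges of 1.91 to 11.3 and 0.922 to 2.49 RPKM. Endothelial markers gave 0.557 RPKM, the highest of its age, and 0.370 RPKM, over ranges of 0.399 to 0.557 and 0.252 to 0.418 RPKM. The KC markers summed to 12181 RPKM in replicate 2 at 1 week, the lowest of its age, and to 8203 RPKM in replicate 4 at 3 weeks. The part of these differences in the members' levels was not tested.

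The signs and the median of the members' log2 fold changes turned on these libraries. Each library was left out in turn, and the fits shown here were chosen for the high values of these libraries. Without replicate 4 at 3 weeks, 29 of the 32 members had a negative log2 fold change and 3 a positive, the median was -0.77, and 7 members fell. Over all genes, 36.5% were then called and 18.7% were lower at 3 weeks. The 7 were Cgas, Samhd1, Ifit1, Ifit2, Oas3, Igtp and Dhx58. Replicate 4 held the highest 3-week value of Ifit1, Ifit2, Oas3, Igtp and Dhx58. Leaving it out therefore lowers their 3-week mean by construction, and their adjusted p-values in this fit are no independent evidence of a fall. Without replicate 2 at 1 week, 25 members had a positive log2 fold change and 7 a negative, the median was 0.15, and Cgas and Samhd1 again were the calls, where 26.0% of all genes were called and 14.0% were lower. With both libraries left out, a setting added after the data had been seen, 24 were negative and 8 positive, and the median was -0.41. Then 6 members fell (the 7 above except Ifit1), where 18.2% of all genes were lower. In both fits without replicate 4 at 3 weeks, the share of members called lower was close to that of all genes.

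**Figure D3:**
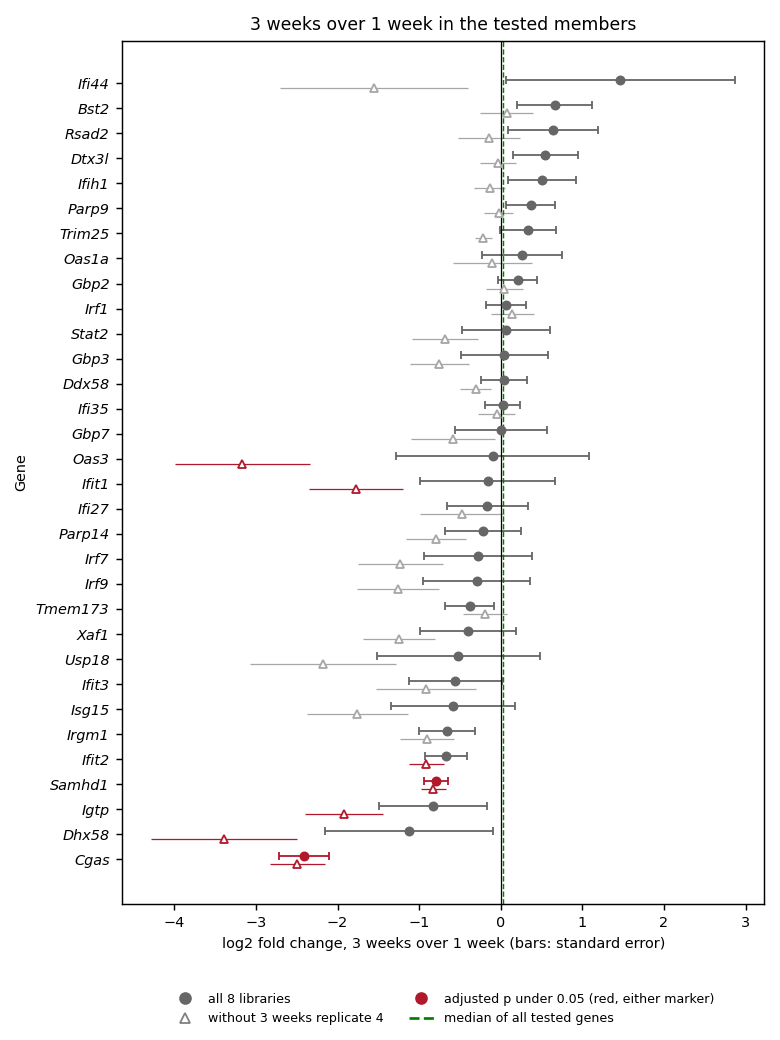
Log2 fold change, 3 weeks over 1 week, of each tested member (rows) with its standard error, from all 8 libraries (filled circles) and without replicate 4 at 3 weeks (open triangles). Red marks an adjusted p under 0.05, and the dashed line is the median of all tested genes, 0.03. Cgas and Samhd1 are red in both fits, and Oas3, Ifit1, Ifit2, Igtp and Dhx58 are red only among the triangles.

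The study describes the KCs of both times as coming from shared batches. The names of the deposited tables carry numbers whose meaning is not stated, and 3 of them occur at both times. For number 46, replicate 1 at both times, 26 of 32 members were lower at 3 weeks, with a median log2 difference of -0.76. For number 49, replicate 3 at 1 week and replicate 2 at 3 weeks, 20 were lower and the median was -0.21. For number 90, replicate 4 at both times, 28 were higher and the median was 1.36. These are single pairs of libraries without a test. In each of the 3 pairs 49.8% of all tested genes were higher at 3 weeks. The high 1-week library (number 47) has no partner of the same number at 3 weeks.

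The binding elements of this pathway were looked up in the promoters that RefSeq gives on GRCm38.p6, from 250 bases before to 50 after the transcript start. A window was found for 29 of the 40 members, while Dhx58, Ifi27, Iigp1, Mx1, Mx2, Oas2, Parp14, Parp9, Rtp4, Tmem173 and Usp18 had none. The pattern GAAA, any 2 bases, GAAA (the paired GAAA pattern), the core of the element bound by the complex of Stat2 and Irf9, was found on either strand in 15 of the 29 (51.7%), against 3.99% of the 27025 genes with a window. The 15 were Bst2, Ddx58, Gbp2, Gbp3, Gbp7, Ifih1, Ifit1, Ifit3, Igtp, Irgm1, Isg15, Oas1a, Oas3, Rsad2 and Stat2. The pattern TTC, any 3 bases, GAA, the core of the element through which interferon gamma acts, reads the same on both strands and was found in 8 (27.6%), against 9.55% of genes: Bst2, Gbp7, Ifi35, Ifit2, Igtp, Irf1, Oas1a and Samhd1. A match is a run of letters, not a measured binding site.

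Stretches of 5 promoters with the first pattern are shown because these genes carry the contrast between libraries, and Samhd1 and Cgas because they carry the contrast between times. Capitals mark the paired GAAA pattern, or its complement with TTTC, in the first 5, where copies that overlap form a single run, and the pattern with TTC and GAA in Samhd1. The Cgas stretch, the 80 bases before the start, holds neither pattern. The sequences run 5′ to 3′ along the strand of the gene and lie at chr4:156200855-156200916 on the - strand (Isg15), chr19:34640765-34640833 on the + strand (Ifit1), chr5:120777705-120777754 on the - strand (Oas3), chr8:71537567-71537622 on the - strand (Bst2), chr11:58199502-58199551 on the + strand (Igtp), chr2:157135303-157135346 on the - strand (Samhd1) and chr9:78443238-78443317 on the - strand (Cgas).
Isg15: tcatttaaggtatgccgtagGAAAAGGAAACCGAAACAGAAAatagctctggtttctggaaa
Ifit1: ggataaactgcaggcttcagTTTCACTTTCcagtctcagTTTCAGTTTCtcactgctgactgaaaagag
Oas3: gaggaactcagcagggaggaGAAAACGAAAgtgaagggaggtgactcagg
Bst2: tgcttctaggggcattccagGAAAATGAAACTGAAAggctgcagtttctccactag
Igtp: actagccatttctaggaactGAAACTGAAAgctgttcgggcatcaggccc
Samhd1: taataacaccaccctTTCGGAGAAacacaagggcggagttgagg
Cgas: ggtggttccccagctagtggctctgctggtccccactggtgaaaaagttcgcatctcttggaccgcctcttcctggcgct

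Isg15 held 3 overlapping copies that begin 78, 72 and 66 bases before the transcript start, and Bst2 held 2. All 15 members with the paired GAAA pattern passed the filter on reads. Of these, 14 were highest in replicate 2 among the 1-week libraries and 15 in replicate 4 among the 3-week libraries, with a median log2 excess over the other libraries of 1.17 and 1.77. Of 11 tested members whose window lacked the pattern, 6 and 7 were highest in these libraries, with a median excess of 0.42 and 1.52. In replicate 4 at 3 weeks the excess ran from 0.57 to 4.64 with the pattern and from -0.32 to 4.84 without it. A link between the pattern and the contrast of libraries was not tested, and other genes with the pattern were not compared. Ifi44, which had the largest excess of any member in both libraries, lacked both patterns in its window.

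Among the sensors, Cgas was lower in every 3-week library than in any 1-week library. Its levels were 0.815, 1.04, 1.08 and 1.57 RPKM in replicates 1 to 4 at 1 week and 0.143, 0.251, 0.133 and 0.231 RPKM at 3 weeks. Replicate 2 at 3 weeks, and not replicate 4, was the highest of its age. The mean dropped from 1.12 ± 0.317 to 0.189 ± 0.0601 RPKM (SD, n = 4), a fitted decrease of 5.32-fold (log2 fold change -2.41 ± 0.31, SE, adjusted p = 0.000717). The gene (ENSMUSG00000032344, chr9:78430526-78443237 on the - strand, GRCm38) had 9 to 114 reads per library, and 3 reads correspond to at most 0.0507 RPKM, so the 3-week levels rest on few reads. Leaving out any 1 library gave log2 fold changes between -2.56 and -2.21.

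Tmem173, the adaptor that Cgas activates, had 3.51, 3.33, 3.60 and 1.99 RPKM at 1 week and 1.84, 2.62, 2.67 and 1.30 RPKM at 3 weeks. The groups overlapped through the low replicate 4 at 1 week (log2 fold change -0.38 ± 0.30, adjusted p = 0.368). Unlike most members, Tmem173 was lowest in replicate 4 at both times, a trait it shared with Irf1.

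The RIG-I-like receptors followed the high libraries. Ddx58, which encodes RIG-I, had 4.62, 6.60, 5.36 and 5.08 RPKM at 1 week and 4.44, 4.68, 2.57 and 8.51 RPKM at 3 weeks. Ifih1, which encodes MDA5, had 1.55, 2.28, 1.48 and 1.42 RPKM at 1 week and 1.41, 1.30, 1.32 and 4.64 RPKM at 3 weeks. The extreme values of both genes at 3 weeks enclosed all their 1-week values. Neither gene was called between the times (log2 fold changes 0.04 ± 0.28 and 0.51 ± 0.41, adjusted p = 0.932 and 0.380).

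Dhx58, which encodes LGP2, a receptor of this family without signalling domains, was near the limit of detection in most 3-week libraries. It had 0.642, 1.17, 0.192 and 0.347 RPKM at 1 week and 0, 0.0744, 0.0744 and 0.874 RPKM at 3 weeks, where 3 reads correspond to 0.0445 to 0.0639 RPKM. Over all libraries the log2 fold change was -1.12 ± 1.03 (adjusted p = 0.439), and without replicate 4 at 3 weeks it was -3.39 ± 0.89 (adjusted p = 0.0190). Its locus overlaps a gene on the opposite strand that also had reads, and use of the strand in counting is not stated.

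**Figure D4:**
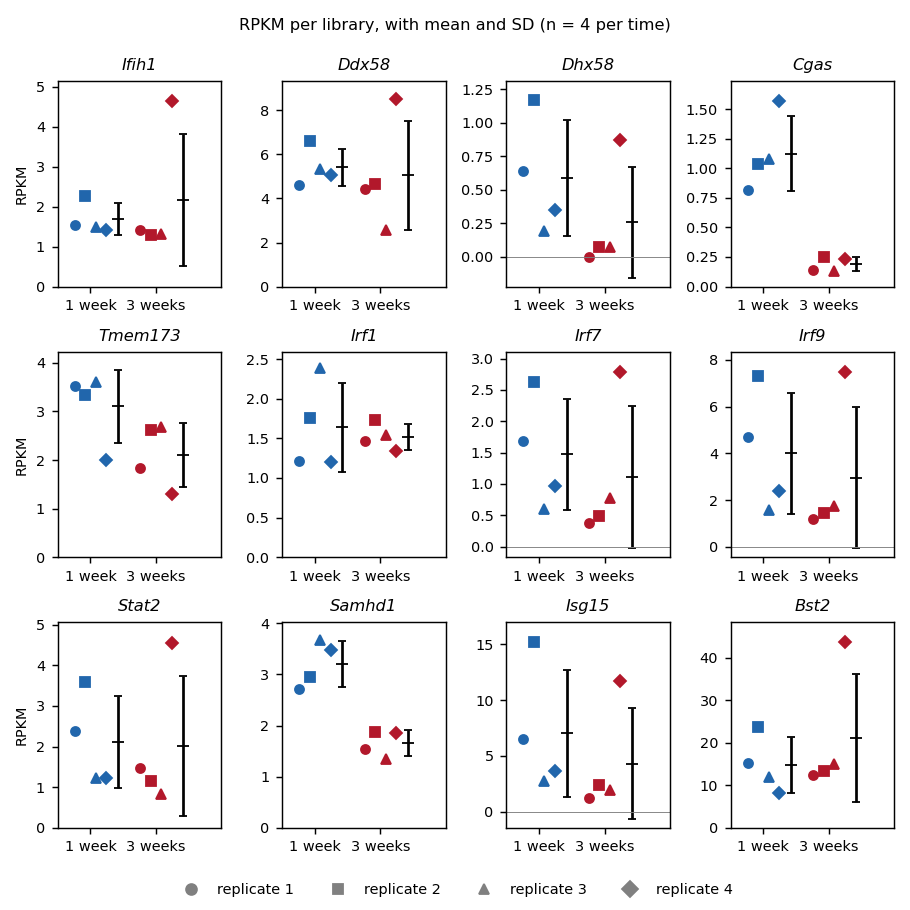
RPKM (vertical axes, from 0 or from the lower end of the error bar) of the 5 sensors, the 4 transcription factors, Samhd1, Isg15 and Bst2 in the 4 libraries of each time (blue 1 week, red 3 weeks, the marker shape giving the replicate), with mean and SD in black. Cgas and Samhd1 separate the times without overlap, whereas in most other panels the blue square (replicate 2) and the red diamond (replicate 4) lie highest.

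Of the transcription factors, Stat2 and Irf9, partners in the complex that answers type I and III interferons, shared the pattern of the libraries. Irf9 had 4.71, 7.31, 1.58 and 2.39 RPKM at 1 week and 1.19, 1.46, 1.73 and 7.50 RPKM at 3 weeks. Stat2 had 2.38, 3.59, 1.22 and 1.21 RPKM at 1 week and 1.48, 1.16, 0.842 and 4.56 RPKM at 3 weeks. In each time point the high library was several fold above the lowest, and the groups overlapped over most of their range (log2 fold changes -0.30 ± 0.66 and 0.06 ± 0.54, adjusted p = 0.761 and 0.944).

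Irf7, which amplifies the production of interferons, had 1.68, 2.62, 0.609 and 0.976 RPKM at 1 week and 0.384, 0.483, 0.774 and 2.79 RPKM at 3 weeks, again with overlap (log2 fold change -0.28 ± 0.66, adjusted p = 0.779). Irf1, a factor that acts downstream of interferon gamma above all, was even among the libraries. It had 1.22, 1.76, 2.38 and 1.20 RPKM at 1 week and 1.47, 1.73, 1.55 and 1.34 RPKM at 3 weeks (log2 fold change 0.07 ± 0.25, adjusted p = 0.864). Its 3-week values all lay within the 1-week range, and its highest library was replicate 3 at 1 week. Irf7 and Irf1 each overlap a gene with reads on the opposite strand.

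The ubiquitin-like modifier Isg15 had 6.46, 15.2, 2.76 and 3.60 RPKM at 1 week and 1.21, 2.33, 1.93 and 11.7 RPKM at 3 weeks. The 1-week mean was 7.01 ± 5.70 RPKM and the 3-week mean 4.29 ± 4.96 RPKM (SD, n = 4, log2 fold change -0.59 ± 0.76, adjusted p = 0.589). Without replicate 4 the 3-week libraries all lay below the 1-week libraries. Usp18, the protease that removes Isg15 from proteins and dampens the interferon receptor, ranged from 0.250 to 4.56 RPKM with its maximum in replicate 2 at 1 week (log2 fold change -0.52 ± 1.00, adjusted p = 0.725).

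Trim25, the ubiquitin ligase that acts on RIG-I, was steady but for 1 library. It had 8.64, 9.29, 9.82 and 10.2 RPKM at 1 week and 7.10, 7.70, 6.76 and 21.8 RPKM at 3 weeks. Replicate 4 at 3 weeks stood far above every other library, and the remaining 3 lay below all 1-week libraries (log2 fold change 0.34 ± 0.35, adjusted p = 0.493).

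The IFIT proteins bind viral RNA and hold back its translation. Ifit2 had 1.48, 2.11, 1.51 and 1.63 RPKM at 1 week and 0.861, 0.666, 0.822 and 1.44 RPKM at 3 weeks. In RPKM the groups did not overlap, but the highest 3-week value came close to the lowest 1-week value. In normalized log2 CPM they did overlap, with 2.59 in replicate 4 at 3 weeks against 2.57 and 2.55 in replicates 1 and 3 at 1 week. The difference missed the threshold (log2 fold change -0.67 ± 0.26, adjusted p = 0.0724). DESeq2 gave an adjusted p of 0.0461 for Ifit2. On log2(RPKM + 0.1), which lacks the normalization of the main test, limma gave 0.0290. Ifit1 ranged from 0.288 to 1.04 RPKM at 1 week and had 0.0808, 0.183, 0.138 and 1.33 RPKM at 3 weeks (log2 fold change -0.16 ± 0.82, adjusted p = 0.903), while the fit without replicate 4 at 3 weeks gave -1.77 ± 0.58 (adjusted p = 0.0436). Ifit3, with 49.2% of reads uniquely mapped, averaged 0.920 ± 0.698 RPKM in the 1-week and 0.568 ± 0.312 RPKM in the 3-week libraries (adjusted p = 0.487).

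Enzymatically active OAS proteins make a second messenger that activates an RNase, and Oas3 showed the contrast of libraries sharply. It had 0.750, 1.27, 0.217 and 0.152 RPKM at 1 week and 0.0455, 0.0602, 0.0689 and 1.92 RPKM at 3 weeks. Its highest and its 3 lowest values were thus all from 3 weeks, and the log2 fold change moved from -0.10 ± 1.18 (adjusted p = 0.958) to -3.17 ± 0.83 (adjusted p = 0.0183) without replicate 4 at 3 weeks. Oas1a had 3.29, 3.89, 1.26 and 1.02 RPKM at 1 week and 1.59, 1.81, 2.39 and 4.41 RPKM at 3 weeks (log2 fold change 0.26 ± 0.49, adjusted p = 0.723), with 55.5% of reads uniquely mapped. Of the untested OAS and OAS-like genes, Oasl1 had 0.141 to 0.410 RPKM at 1 week and 0 to 0.117 RPKM at 3 weeks. These ranges did not overlap but rested on 58 reads in all.

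Among members that act on viral entry, budding and nucleotide supply, Samhd1 fell. It had 2.71, 2.95, 3.68 and 3.48 RPKM at 1 week and 1.55, 1.88, 1.34 and 1.85 RPKM at 3 weeks. All 3-week libraries lay below all 1-week libraries, and neither of the high libraries stood out. The mean dropped from 3.20 ± 0.450 to 1.66 ± 0.257 RPKM (SD, n = 4, log2 fold change -0.79 ± 0.15 with its SE, adjusted p = 0.00387), with 202 to 561 reads per library on the gene (ENSMUSG00000027639, chr2:157097533-157135265 on the - strand, GRCm38). Leaving out any 1 library gave log2 fold changes between -0.88 and -0.73.

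Bst2, a membrane protein that tethers budding virus particles, was among the most abundant members. It had 15.4, 23.7, 12.0 and 8.16 RPKM at 1 week and 12.5, 13.3, 15.0 and 43.7 RPKM at 3 weeks (log2 fold change 0.66 ± 0.45, adjusted p = 0.298). Replicate 4 at 3 weeks was the highest of all libraries, and the others of its age lay within the 1-week range. Rsad2, also called viperin, which makes a chain-terminating nucleotide, followed the same order, with 2.25 RPKM in that library and 0.392 to 1.19 RPKM in the other 7 (log2 fold change 0.64 ± 0.55, adjusted p = 0.404).

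The interferon-induced GTPases act on membranes around intracellular microbes. Gbp2, Gbp3 and Gbp7 had log2 fold changes between 0.00 and 0.21 (adjusted p between 0.541 and 0.999), and all 3 were highest at 3 weeks in replicate 4, with 3.06, 1.44 and 0.667 RPKM. Igtp had 0.935, 2.23, 0.758 and 0.953 RPKM at 1 week and 0.212, 0.271, 0.361 and 1.68 RPKM at 3 weeks (log2 fold change -0.83 ± 0.66, adjusted p = 0.368). It was called only when replicate 4, its highest 3-week library, was left out (-1.92 ± 0.48, adjusted p = 0.0151, and likewise without both high libraries). Its level is uncertain, since 6.44% of its reads were uniquely mapped. Irgm1 had 0.958 to 1.82 RPKM at 1 week and 0.360 to 1.04 RPKM at 3 weeks (log2 fold change -0.66 ± 0.34, adjusted p = 0.170).

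Parp9 and its partner Dtx3l, a ubiquitin ligase, and Parp14, an ADP-ribosyltransferase, had log2 fold changes between -0.22 and 0.55 (adjusted p between 0.326 and 0.752). In replicate 4 at 3 weeks they had 6.09, 4.09 and 1.57 RPKM, the highest of the 8 libraries for each. Parp9 and Dtx3l overlap a gene with reads on the opposite strand, as do Dhx58, Irf1, Irf7 and Rtp4, 6 members in all.

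Ifi27, a small mitochondrial protein, had 19.5, 42.1, 9.73 and 16.7 RPKM at 1 week and 8.63, 11.1, 21.1 and 28.8 RPKM at 3 weeks (log2 fold change -0.17 ± 0.50, adjusted p = 0.827). Ifi35, which binds the factor Nmi, had 19.6, 22.2, 13.6 and 14.8 RPKM at 1 week and 12.2, 14.6, 17.4 and 19.4 RPKM at 3 weeks (log2 fold change 0.03 ± 0.21, adjusted p = 0.939). Both overlapped widely, and Ifi35 was the more even.

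Ifi44 varied most. It had 0.291, 1.70, 0.0682 and 0.0462 RPKM at 1 week and 0.0788, 0.199, 0.199 and 4.99 RPKM at 3 weeks. In read counts this was 5 to 449 per library, and the log2 fold change of 1.47 ± 1.41 (adjusted p = 0.459) was carried by replicate 4 at 3 weeks. Xaf1, a pro-apoptotic protein, was highest in the same libraries, with 6.65 and 5.82 RPKM, over 1.78 to 3.51 and 1.21 to 1.42 RPKM in the others of the same age (log2 fold change -0.40 ± 0.59, adjusted p = 0.640).

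The interferon genes themselves were at or near 0. Of 10 ligands looked up (Ifnb1, Ifnk, Ifne, 4 Ifna genes, Ifnl2, Ifnl3 and Ifng), 9 had no read in any library and Ifng had 2 in all. A count of 3 reads, the limit that a count of 0 allows, corresponds to 0.112 to 0.373 RPKM for these short genes, and covers counting error only.

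Among 12 genes of interferon receptors and signalling, all tested, 5 rose and 1 fell, where 15.7% of all tested genes rose and 17.0% fell, and the median log2 fold change was 0.46. The interferon gamma receptor chains Ifngr1 (0.96 ± 0.20, adjusted p = 0.00648) and Ifngr2 (0.71 ± 0.14, adjusted p = 0.00603) rose, as did Il10rb, a chain shared with the type III receptor, by 1.02 ± 0.12 (adjusted p = 0.000659). Il10rb had 6.85 to 7.92 RPKM at 1 week and 11.8 to 14.8 RPKM at 3 weeks. The type I receptor chains Ifnar1 (0.49 ± 0.15, adjusted p = 0.0320) and Ifnar2 (0.42 ± 0.14, adjusted p = 0.0483) were also called. The call of Ifnar1 was lost without replicate 1 or 2 at 1 week or replicate 1, 2 or 4 at 3 weeks (adjusted p from 0.0503 to 0.125). That of Ifnar2 was lost without any 1 library except replicate 3 at 3 weeks (adjusted p from 0.0615 to 0.132). Both calls were also lost with the replicate number as a block (adjusted p = 0.0884 and 0.127) and with the table number as a block (adjusted p = 0.0670 and 0.0920).

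Socs1, an inhibitor of the receptor kinases, had 1.08, 1.40, 1.75 and 1.42 RPKM at 1 week and 0.535, 0.607, 0.586 and 0.655 RPKM at 3 weeks, so that the groups did not overlap (log2 fold change -1.08 ± 0.22, adjusted p = 0.00604).

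**Figure D5:**
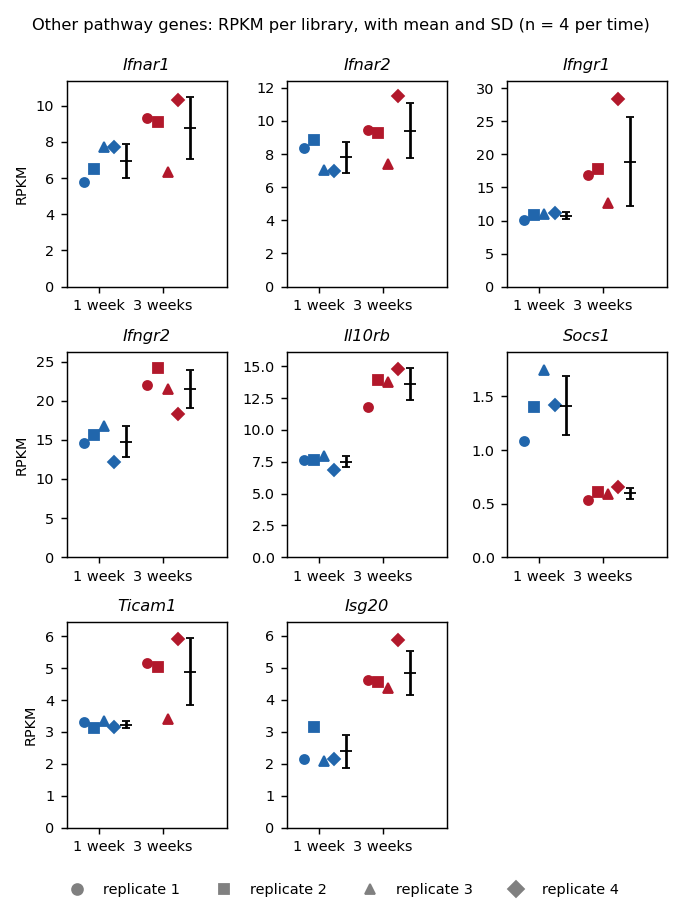
RPKM (vertical axes, from 0) of 8 pathway genes outside the 40 members in the 4 libraries of each time (blue 1 week, red 3 weeks, the marker shape giving the replicate), with mean and SD in black. Ifngr1, Ifngr2, Il10rb, Socs1, Ticam1 and Isg20 separate the times without overlap, as do 37.0% of all tested genes. The 8 genes are shown because they were called between the times, a choice that favours separation.

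Of 14 adaptors, kinases and nucleases of the sensor pathways, 12 were tested, and Ticam1, an adaptor of Toll-like receptor 3, rose (0.75 ± 0.15, adjusted p = 0.00630). Of 31 further interferon-stimulated genes, 18 were tested, and Isg20, an exonuclease, rose (1.18 ± 0.19, adjusted p = 0.00212). No other gene of these lists was called, where 15.7% of all tested genes rose and 17.0% fell. The other interferon-stimulated genes had the library pattern of the members, with 14 of 18 highest in replicate 2 at 1 week and 13 of 18 in replicate 4 at 3 weeks, against 25.5% and 33.6% of all tested genes. For the receptor and signalling genes these counts were 3 and 7 of 12, and for the adaptors, kinases and nucleases 2 and 8 of 12.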

How the data were processed

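The authors trimmed single-end reads of poly(A) libraries, aligned them to GRCm38 in the CLC Genomics Workbench at default settings, and deposited 1 table per sample with raw counts of reads per gene (on exons, uniquely mapped, on the whole gene) and RPKM values with decimal commas. The annotation release and the use of strand are not given in the sources used here. Exon read counts were filtered with filterByExpr, normalized by TMM and tested with edgeR 4.0.16 (R 4.3.3), all 8 samples unpaired, at an adjusted p of 0.05. The procedure was checked on simulated counts. DESeq2 1.42.0 and limma 3.58.1 served as alternatives. Figures were drawn with matplotlib 3.10.9 (Python 3.11.15). Replicates of a time differed by more than sampling noise (smallest chi-square per degree of freedom 14.6). No source ties each sample to its own animal, so p-values measure the spread between these samples.

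The members and the gene lists were chosen with earlier results of these data known. Every member is named. Values in all libraries are given for called members, sensors, transcription factors and the 5 most abundant others, and of the other lists for called genes. The rule also named 1 gene that is not reported here. Further members (Ifit1, Ifit2, Ifi44, Oas1a, Oas3, Igtp) were chosen for this after their values had been seen. Promoters came from RefSeq. Intervals and limits from counts cover counting error only.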

Additional observations from a re-analysis of the deposited data

Results flagged for a closer look

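In each time point the highest and the lowest of the 4 libraries were compared with the other 3 by Dixon's ratio at its 95% critical value for the 32 tested members and 8 other pathway genes, 40 genes and 80 sets of 4 libraries in all. A library stood apart in 24 sets. Chance gives about 1 in 20 such sets, and the genes share their libraries, so the 24 are not independent. The 8 other genes were those called between the times, and the count over all tested genes was not made. Replicate 4 at 3 weeks was at least 2-fold above its companions for 10.8% of all tested genes. For the other libraries of its age this was 0.985% to 2.54%.

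In 17 sets the library was replicate 4 at 3 weeks, above its companions: Bst2 at 43.7 RPKM, Trim25 at 21.8, Isg15 at 11.7, Irf9 at 7.50, Parp9 at 6.09, Xaf1 at 5.82, Ifi44 at 4.99, Ifih1 at 4.64, Stat2 at 4.56, Usp18 at 3.34, Irf7 at 2.79, Rsad2 at 2.25, Oas3 at 1.92, Igtp at 1.68, Gbp3 at 1.44, Ifit1 at 1.33 and Dhx58 at 0.874 RPKM. In 6 sets it was replicate 2 at 1 week, also above: Isg20 at 3.16 RPKM, Ifih1 at 2.28, Igtp at 2.23, Irgm1 at 1.82, Ifi44 at 1.70 and Ifit1 at 1.04 RPKM. The remaining set was Tmem173 at 1 week, where replicate 4 lay below the others at 1.99 RPKM.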

How the results depend on the processing

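The alternatives were DESeq2, upper-quartile normalization, no filter, a mean of at least 50 reads, uniquely mapped reads, gene reads with introns, log2(RPKM + 0.1) or log2(RPKM + 1) values in limma, the replicate block, a block on the number in the table names, and each library left out in turn. Leaving out both high libraries was added after seeing the data. Cgas and Samhd1 were lower in every setting in which they were tested, with adjusted p-values up to 0.00832 and 0.0237. Under the filter at 50 reads Cgas, with 381 reads in all, was not tested, and 1 member was called lower. That count was 6 without both high libraries and 2 to 7 with 1 library left out (7 without replicate 4 at 3 weeks), against 2 in the report, and 0 members were higher in any setting. The members' median log2 fold change ran from -0.77 to 0.15 with 1 library left out. Genes called higher over the whole table numbered 1981 in the report, 1309 under the replicate block, 1316 under the block on table-name numbers, 1313 (against 3089 lower) under limma with 0.1 and 1281 with 1.

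The study compared the same batches at both times, but the labels do not say which samples share a batch. Deviations of same-numbered replicates correlated between -0.23 and 0.25, and those of the 3 pairs with the same table number by -0.23 (46), 0.20 (49) and 0.25 (90), so neither number was shown to pair all samples. The replicate block and the block on table numbers both left the same 2 members called and ended the calls of Ifnar1 and Ifnar2.

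Among the other pathway genes 7 were called higher (5 to 12 with 1 library left out, 12 without replicate 3 at 3 weeks) and 1 lower, against 2 lower under the replicate block, DESeq2, upper-quartile normalization, no filter and unique reads, 3 under both limma settings, 6 without both high libraries and 1 to 6 with 1 library left out (6 without replicate 4 at 3 weeks). Ifnar1 and Ifnar2 lost their call in several settings, both blocks among them, with adjusted p-values up to 0.189 and 0.238.

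The sign of several small log2 fold changes turned, none of them past the threshold in the report. With 1 library left out they ran from -0.31 to 0.21 for Ddx58, -0.48 to 0.34 for Ifi27, -0.095 to 0.15 for Ifi35, -0.14 to 0.69 for Ifih1, -1.77 to 0.42 for Ifit1, -0.076 to 0.29 for Irf1, -1.23 to 0.14 for Irf7, -1.26 to 0.15 for Irf9, -1.76 to 0.10 for Isg15, -3.17 to 0.55 for Oas3, -0.69 to 0.43 for Stat2 and -0.22 to 0.50 for Trim25. Under the replicate block Ddx58 was at -0.054 and Stat2 at -0.12, and under the block on table-name numbers Ifi27 was at 0.020 and Ifit1 at 0.015. Without a filter Ddx58 was at -0.015 and Ifi35 at -0.040, with unique reads Ifi35 was at -0.0048 and with introns counted Ddx58 was at -0.11. Under limma with 0.1 Ddx58 was at -0.21, Ifi35 at -0.13, Irf1 at -0.053 and Stat2 at -0.22, and with 1 they were at -0.16, -0.13, -0.045 and -0.12. Without both high libraries Ddx58 was at -0.24, Ifih1 at -0.0077, Stat2 at -0.35 and Trim25 at -0.27. The cause was not tested.

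Depth limits 20 members with means under 1 RPKM, of which 8 were untested, and 6 members with under 80% of reads uniquely mapped (Igtp, Ifit3, Usp18, Oas1a, Parp9 and Dhx58).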
